A study of Mus musculus with 6 samples.

Results

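The cytosolic ribosomal protein genes of the mouse were examined in cultured primary hepatocytes of WT and Alb/MDA-9 mice. A gene was taken when GENCODE lists it as protein coding on GRCm38 and its symbol is Rpl or Rps with a number, or Rplp0, Rplp1, Rplp2 or Rpsa. Rps6k kinases and names marked as pseudogenes were left out. The rule used no measured value and gave 83 genes of the 55487 in the count tables, 51 of the large ribosomal subunit and 32 of the small one. Of these, 79 had enough reads to be tested, and Rpl3l, Rpl10l, Rpl24 and Rpl39l did not. Rps4l, listed as a pseudogene, is no member, and genes that encode ribosomal proteins under other names, such as Fau and Rack1, are given apart.

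Ribosomes translate mRNA, and their protein subunits are assembled with ribosomal RNA in the nucleolus before export to the cytosol. The small subunit reads the mRNA, and the large subunit joins amino acids and releases the chain through a tunnel. Hepatocytes make most plasma proteins and hold many ribosomes. The mRNAs of ribosomal proteins begin with a terminal oligopyrimidine tract (5′ TOP), through which the mTORC1 kinase controls their translation, a step that mRNA levels do not show. Mammalian genomes also carry many processed pseudogenes of these genes, made by reverse transcription of their mRNAs, and a short read from such a gene often matches a copy as well as the gene.

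Both groups were on a B6CBAF1 background and were littermates from crosses of WT and heterozygous Alb/MDA-9 mice on regular chow. Alb/MDA-9 mice carry human MDA-9/SDCBP (syntenin, an adaptor protein), HA-tagged at its C terminus, under an enhancer and core promoter of the mouse albumin gene, which act in hepatocytes. The hepatocytes were cultured and received no treatment, and neither sex, age nor the number of founder lines is given in the sources used here. B6CBAF1 joins 2 inbred strains, so littermates can inherit different strain segments, and such segments and the transgene cannot be told apart in this design. Each group had 3 libraries, WT 1 to 3 and Alb/MDA-9 1 to 3. Whether each library stands for its own animal or culture is not stated in the labels, so p-values measure only the spread between libraries, which may be technical.

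Between 16403918 and 19046739 reads per library fell on the annotated strand of genes, and 18.7% to 20.2% of all reads mapped to several places and were not counted. Levels are CPM (counts relative to library size) scaled by TMM, a method that sets the typical gene at no change. Hepatocyte markers summed to 84923 to 88008 CPM in WT and 89535 to 104863 CPM in Alb/MDA-9, with 2 of 10 higher and 1 lower by the edgeR test described below. Markers of Kupffer cells summed to 411 to 427 against 238 to 395 CPM (0 of 11 higher, 8 lower), of endothelial cells to 261 to 284 against 203 to 224 (0 of 10 higher, 4 lower) and of stellate cells to 293 to 314 against 196 to 263 (0 of 10 higher, 5 lower). Cholangiocyte markers summed to 52.8 to 60.9 against 251 to 360 CPM, of which Spp1 had 0.967 ± 0.343 against 215 ± 56.6 (SD, n = 3), and 3 of the 5 tested were higher and 1 lower. Cd3d, Ms4a1 and Nkg7 were among the lymphocyte markers with no read in any library, and of 11 proliferation genes tested 10 were lower. Over all 13296 genes tested, 7.35% were called higher and 7.09% lower. Fewer cells of a type and less RNA per cell cannot be told apart in such bulk libraries, and the part of other cells in the values below was not tested.

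Near-identical copies bear on which reads of these genes are counted, so pairs of a gene and a copy are shown first for Rps18, Rpl26, Rps7 and Rps2. The Rps2 copy shown is not its most read one, and copies of Rpl15 are not shown. Copies were searched among the annotated transcripts of GENCODE M21. Each pair gives 60 coding bases on GRCm38, 5′ to 3′ on the strand of the gene, with the positions that differ in capitals, and coding positions are counted from 1 at the A of the start codon. Rps18 (chr17:33952221-33952280, minus strand) and the gene Gm10260 (chr13:97760206-97760265, minus strand) differ here by A337C and G371A, and by 4 of 459 coding bases in all.
Rps18: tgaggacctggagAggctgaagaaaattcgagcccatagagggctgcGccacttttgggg
Gm10260: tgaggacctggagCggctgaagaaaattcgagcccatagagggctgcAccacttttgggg
Rpl26 (chromosome 11, plus strand, 68902421 to 68903216 with an intron inside) and the pseudogene Gm15772 (chr5:3236577-3236636, plus strand) differ by C177T here and by 2 of 438 coding bases in all.
Rpl26: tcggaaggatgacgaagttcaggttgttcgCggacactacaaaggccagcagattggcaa
Gm15772: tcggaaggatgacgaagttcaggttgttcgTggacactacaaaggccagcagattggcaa
Rps7 (chr12:28635589-28635648, minus strand) and the pseudogene Gm6472 (chrX:152910055-152910114, minus strand) differ by T26G and G48A, with 3 differences over 585 coding bases.
Rps7: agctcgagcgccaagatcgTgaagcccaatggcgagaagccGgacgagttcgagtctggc
Gm6472: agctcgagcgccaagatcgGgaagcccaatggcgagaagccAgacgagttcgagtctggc
Rps2 (chr17:24720317-24720376, plus strand) and its pseudogene Rps2-ps13 (chrX:52898629-52898688, plus strand) differ by T60A and A84G, with 7 differences over 882 coding bases.
Rps2: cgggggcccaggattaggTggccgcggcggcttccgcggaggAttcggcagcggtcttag
Rps2-ps13: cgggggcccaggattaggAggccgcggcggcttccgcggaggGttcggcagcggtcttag
The longest run of identical coding bases was 185 in the Rps18 pair, 176 in the Rpl26 pair, 462 in the Rps7 pair and 302 in the Rps2 pair. Reads that map to several places are not in these counts. How the reads over such runs were placed was not tested.

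In the copies the library WT 1 stood apart from the other WT libraries. It also differed in shares of all reads. Unmapped reads were 10.4% in WT 1, against 9.27% in WT 2 and 9.31% in WT 3. Reads assigned to no gene were 6.01%, against 4.90% and 5.09%. All 1088 copies found together had 1177, 833 and 820.0 CPM in WT and 991, 1063 and 857 CPM in Alb/MDA-9. Of 60 copies with enough reads to be tested, WT 1 was over 1.5 times both other WT libraries in 29 and the highest of the 6 libraries in 36. Results that sum a gene with its copies are therefore given with and without WT 1.

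For most ribosomal protein genes the difference between the genotypes was small, and a few stood far apart from the rest. Of the 79 tested, 3 were higher in Alb/MDA-9 (Rpl26, Rpl23, Rps15a) and 2 were lower (Rps2, Rps18), together 5 or 6.33% (quasi-likelihood F test in edgeR, p-values adjusted by Benjamini-Hochberg over all 13296 genes tested and taken at 0.05). Over all genes the same test called 1920, or 14.4%, of which 7.35% of the genes tested were higher and 7.09% lower. The difference between these shares was not tested. The members' median log2 change was 0.07, against -0.00 for all genes tested, with 0.08 for the large subunit and 0.02 for the small one. Changes within 0.2 of 0 on the log2 scale were found for 53 members (67.1%, against 54.7% of all genes), and 47 lay above 0 (59.5%, against 49.7%). The 74 members not called ranged from -0.70 (Rps27) to 0.51 (Rpl19). Their SE was 0.11 at the median of all tested members and up to 0.50 for the least read ones, so small changes of the latter were not detectable at this depth.

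**Figure D1:**
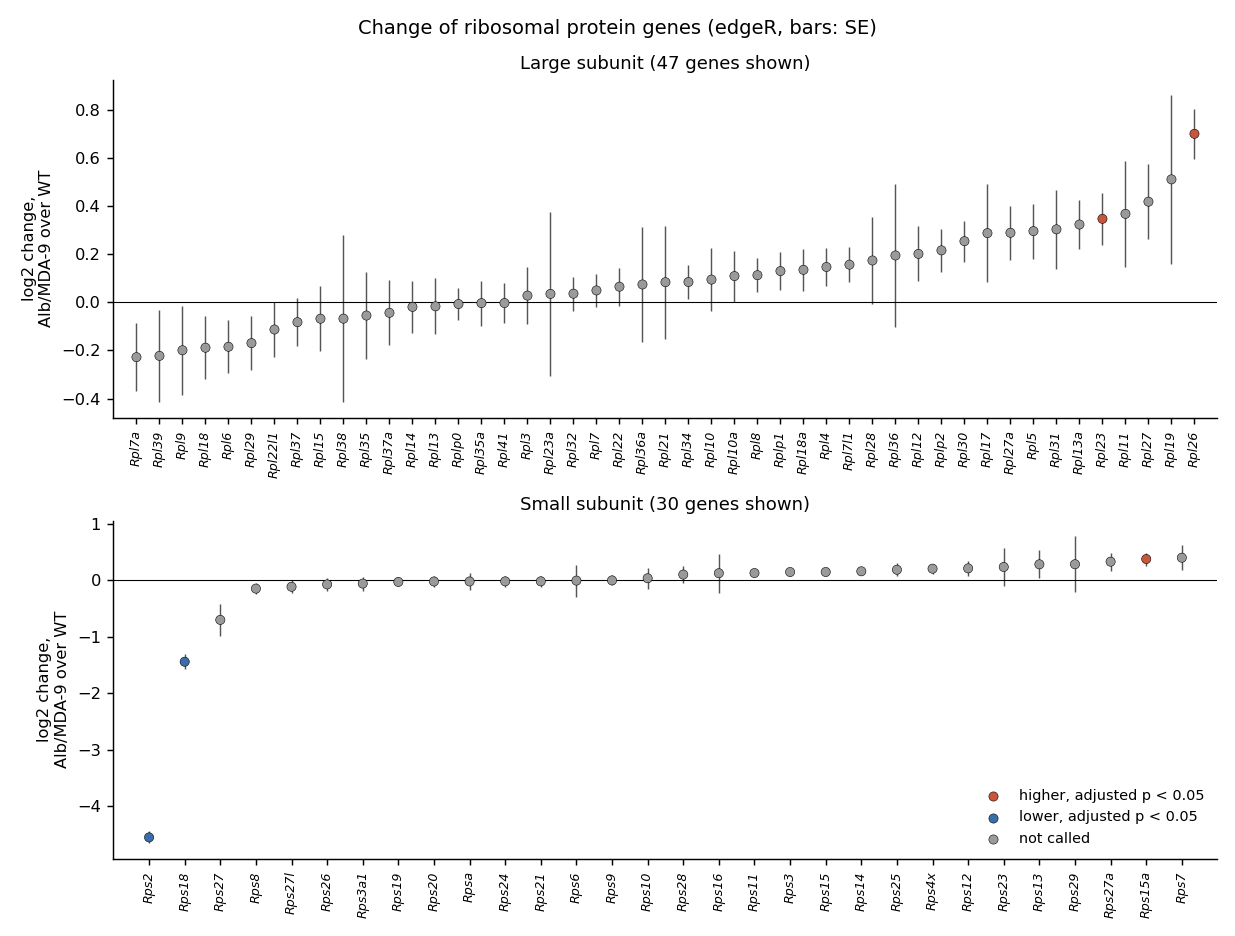
Log2 change of the tested ribosomal protein genes reported here, Alb/MDA-9 over WT, sorted within the large subunit (top) and the small subunit (bottom). Bars are the SE computed from the edgeR F test, and the vertical scales differ between the panels. Rps2 at -4.55 and Rps18 at -1.44 lie far below the others, and Rpl26 at 0.70 is the highest.

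For 19 members every library of one group lay above every library of the other (24.1%, against 33.6% of all genes), 16 of them higher in Alb/MDA-9 (over all genes, 17.1% did not overlap and were higher). At an unadjusted p under 0.05 stood 15 members, 12 higher and 3 lower (19.0%, against 27.9% of all genes). Just outside the threshold were Rpl13a, whose protein is also known outside the ribosome in an inflammation-linked block of translation, with 0.32 on the log2 scale (SE 0.10, edgeR adjusted p = 0.0506), and Rpl30 with 0.25 (SE 0.09, adjusted p = 0.0654). The copies of Rpl13a had 44.1, 17.4 and 12.2 CPM in WT and 17.6, 23.4 and 18.4 CPM in Alb/MDA-9. With them summed, the change of Rpl13a was 0.09 (adjusted p = 0.728), and the sum was not called without WT 1 either. Summed over all 83 genes, WT libraries had 8364, 8597 and 8304 CPM and Alb/MDA-9 libraries 9176, 8824 and 8646 CPM. As shares of the reads on genes, without TMM, the same sums were 0.873%, 0.887% and 0.856% in WT and 0.872%, 0.838% and 0.857% in Alb/MDA-9. The groups did not overlap on the first scale and did on the second, so no direction is given for the sum. With library totals alone the median log2 change of all genes shifted to -0.11 and that of the members to -0.03, which left the members 0.07 above all genes, against 0.08 with TMM.

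**Figure D2:**
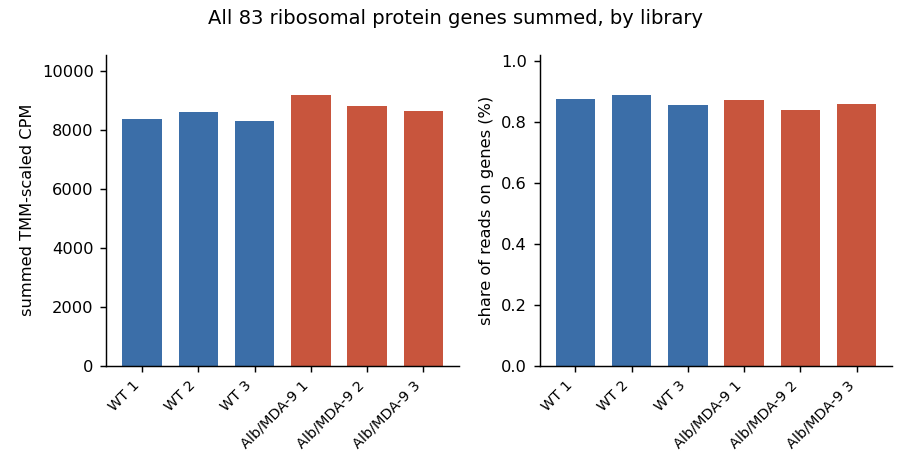
Sum of all 83 ribosomal protein genes in each library, as TMM-scaled CPM (left) and as percent of the raw reads on genes (right), both from 0. Alb/MDA-9 libraries are at 8646 to 9176 CPM against 8304 to 8597 in WT, and at 0.838% to 0.872% of reads against 0.856% to 0.887%.

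Rps2 (ENSMUSG00000044533, chromosome 17, 24718116 to 24721929, plus strand) had the largest change of the tested members. It encodes uS5 of the small subunit, a protein at the entry of the mRNA channel. Its levels were 106, 112 and 93.0 CPM in WT 1 to 3 and 4.53, 4.43 and 4.34 CPM in Alb/MDA-9 1 to 3. Each WT library lay far above each Alb/MDA-9 library, and the Alb/MDA-9 libraries were nearly equal. The group means were 104 ± 9.61 and 4.43 ± 0.0979 CPM (SD, n = 3), a 23.4-fold lower level in Alb/MDA-9 (log2 change -4.55, SE 0.11, edgeR adjusted p = 8.7e-11).

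Much of the Rps2 mRNA is shared, since 79.03% of its 50-base windows also occur in another annotated gene, and 58 annotated copies were found. The annotated copies showed no matching rise of counts in Alb/MDA-9. Together they had 10.9, 5.90 and 5.21 CPM in WT and 6.69, 4.66 and 6.08 CPM in Alb/MDA-9, groups that overlap. The most read of them, the pseudogene Gm11249 on chromosome 4, had 6.31, 1.44 and 1.12 CPM in WT and 1.27, 1.63 and 1.45 in Alb/MDA-9, with WT 1 again above the rest. Rps2-ps13, the copy shown above, had 2 reads over all 6 libraries. With the copies summed, Rps2 still fell by 3.44 on the log2 scale (SE 0.11, adjusted p = 6.9e-10). Reads that map to several places are in no gene's count, so how many of them belong to Rps2 in each genotype was not tested. Without WT 1 the summed change was -3.40 (adjusted p = 4.5e-08). Within 500 kb of Rps2, 4 of 39 other tested genes were called (10.3%, against 14.4% of all genes), 2 higher and 2 lower.

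Rps18 (ENSMUSG00000008668, chromosome 17, 33951999 to 33956001, minus strand) fell in its own counts and rose together with its copy. It encodes uS13, a protein of the head of the small subunit that touches the large one. Rps18 stood at 24.7, 27.7 and 27.5 CPM in WT and 10.2, 8.04 and 11.1 CPM in Alb/MDA-9 (log2 change -1.44, SE 0.13, edgeR adjusted p = 1.8e-05). All Alb/MDA-9 libraries lay below all WT libraries, by 2.71-fold in the model.

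Gm10260 (ENSMUSG00000069117, chromosome 13, 97760072 to 97760632) is a single-exon copy of Rps18 that the annotation lists as protein coding. It moved the other way, with 99.1, 112 and 118 CPM in WT and 250.02, 301 and 238 CPM in Alb/MDA-9 (log2 change 1.26, SE 0.10, adjusted p = 4.9e-06). Of the reads assigned to Rps18 or to its 13 copies, 80.5% lay in copies in WT and 96.4% in Alb/MDA-9. Summed, they gave 124, 140.5 and 146 CPM in WT and 261, 309 and 249.9 CPM in Alb/MDA-9. The sum was higher in every Alb/MDA-9 library (log2 change 1.0, SE 0.09, adjusted p = 2.1e-05), the opposite of the direction of Rps18 alone, and was 0.93 without WT 1 (adjusted p = 0.000245). The Vps52 gene, which overlaps Rps18 on the opposite strand, had 41.2 ± 0.771 and 44.9 ± 2.71 CPM and did not pass the test (adjusted p = 0.327). Within 500 kb of Rps18, 5 of 38 other tested genes were called, 2 higher and 3 lower, a share of 13.2% near the 14.4% of all genes.

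Rpl26 (ENSMUSG00000060938, chromosome 11, 68901583 to 68906989, plus strand) was the most clearly higher member. It encodes uL24, at the exit of the peptide tunnel, where the protein UFM1 is attached to ribosomes at the endoplasmic reticulum. It had 22.1, 24.1 and 20.4 CPM in WT and 39.0, 31.7 and 37.5 CPM in Alb/MDA-9, so all Alb/MDA-9 libraries were higher. The change was 1.62-fold (log2 0.70, SE 0.10, edgeR adjusted p = 0.000803).

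The pseudogene Gm15772 (ENSMUSG00000062353, chromosome 5, 3236431 to 3236868) moved against Rpl26. It had 20.1, 23.1 and 22.5 CPM in WT, close to the level of Rpl26 itself, and at most 1 read in any Alb/MDA-9 library. The counts were 1230 reads over the 3 WT libraries and 2 over the 3 Alb/MDA-9 libraries, a ratio of 567 with a 95% counting interval (exact binomial) of 157 to 4691. Rpl26 and its 12 copies summed to 42.7, 47.6 and 43.3 CPM in WT and 39.3, 31.9 and 38.2 CPM in Alb/MDA-9. The sum pointed down and did not pass the test (log2 change -0.29, SE 0.09, adjusted p = 0.0602), so the higher level of Rpl26 did not hold once its copies were added. Without WT 1 the sum gave -0.32 (adjusted p = 0.0967). Within 500 kb of Rpl26, 5 of 20 other tested genes were called, 2 higher and 3 lower (25%, against 14.4% of all genes), and near Rpl23 and Rps15a 2 of 18 and 2 of 8.

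Rpl23 and Rps15a were higher with few reads in copies, and both lay close to the threshold. Rpl23 encodes uL14, a protein of the subunit interface that, unbound, also inhibits MDM2. It had 173, 218 and 239 CPM in WT and 279, 279 and 243 CPM in Alb/MDA-9 (log2 change 0.35, SE 0.11, edgeR adjusted p = 0.0479). WT 1 was the lowest library, and WT 3 came close to Alb/MDA-9 3. Rps15a encodes uS8, a protein of the small subunit body, and had 157, 174 and 183 CPM in WT and 193, 271 and 202 CPM in Alb/MDA-9 (log2 change 0.38, SE 0.12, adjusted p = 0.0471). Alb/MDA-9 2 stood above the other libraries, of which those of Alb/MDA-9 lay just above WT.

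The copies of Rpl23 held 1.08 ± 0.359 and 1.73 ± 0.839 CPM and those of Rps15a 10.9 ± 2.14 and 9.66 ± 1.31 CPM. Both genes were still called with the copies summed (adjusted p = 0.0448 and 0.0490), but not when WT 1 was also left out (adjusted p = 0.140 and 0.168). Both calls ended with library totals or upper-quartile factors in place of TMM, with a stricter low-count filter, with counts of both strands, and on leaving out WT 1, or WT 2, or Alb/MDA-9 2. Rpl23 was not called without Alb/MDA-9 1 either (adjusted p = 0.117), nor Rps15a without WT 3 (adjusted p = 0.0692). Rps2, Rps18 and Rpl26 were called under each of those settings.

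Rps7 and Rpl15 were not called alone and were called once copies were added. Rps7 encodes eS7 of the small subunit and is among the genes mutated in Diamond-Blackfan anaemia. It had 3.181, 2.67 and 3.20 CPM in WT and 3.59, 4.66 and 3.67 CPM in Alb/MDA-9 (log2 change 0.40, SE 0.22, edgeR adjusted p = 0.261). Its copies held 91.4% of the summed CPM in WT and 82.8% in Alb/MDA-9, nearly all of it in the transcribed pseudogene Gm6472 on the X chromosome. Gm6472 had 29.4, 30.9 and 32.1 CPM in WT and 17.96, 17.3 and 19.1 CPM in Alb/MDA-9 (log2 change -0.77, SE 0.09, adjusted p = 0.000176). The groups of neither gene overlapped, and they lay in opposite order. Rps7 summed with its 15 copies fell by 0.60 on the log2 scale (SE 0.09, adjusted p = 0.000537), and by 0.63 without WT 1 (adjusted p = 0.00233).

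Rpl15 encodes eL15, a core protein of the large subunit, and had 14.4, 16.9 and 16.6 CPM in WT and 16.7, 12.46 and 16.4 CPM in Alb/MDA-9. These groups overlap (log2 change -0.07, SE 0.14, adjusted p = 0.789). Its pseudogenes Gm8420 on chromosome 1 and Gm14094 on chromosome 2 had reads almost only in WT. Gm8420 had 205 reads over the WT libraries and 3 over the Alb/MDA-9 libraries, a ratio of 63.1 with a 95% counting interval of 21.3 to 308. Gm14094 had 56 reads and 1 read, a ratio of 51.7 (8.90 to 2077). With all 22 copies summed, Rpl15 fell by 0.42 on the log2 scale (SE 0.12, adjusted p = 0.0384). Without WT 1 that sum had a change of -0.48 and did not pass (adjusted p = 0.0563).

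**Figure D3:**
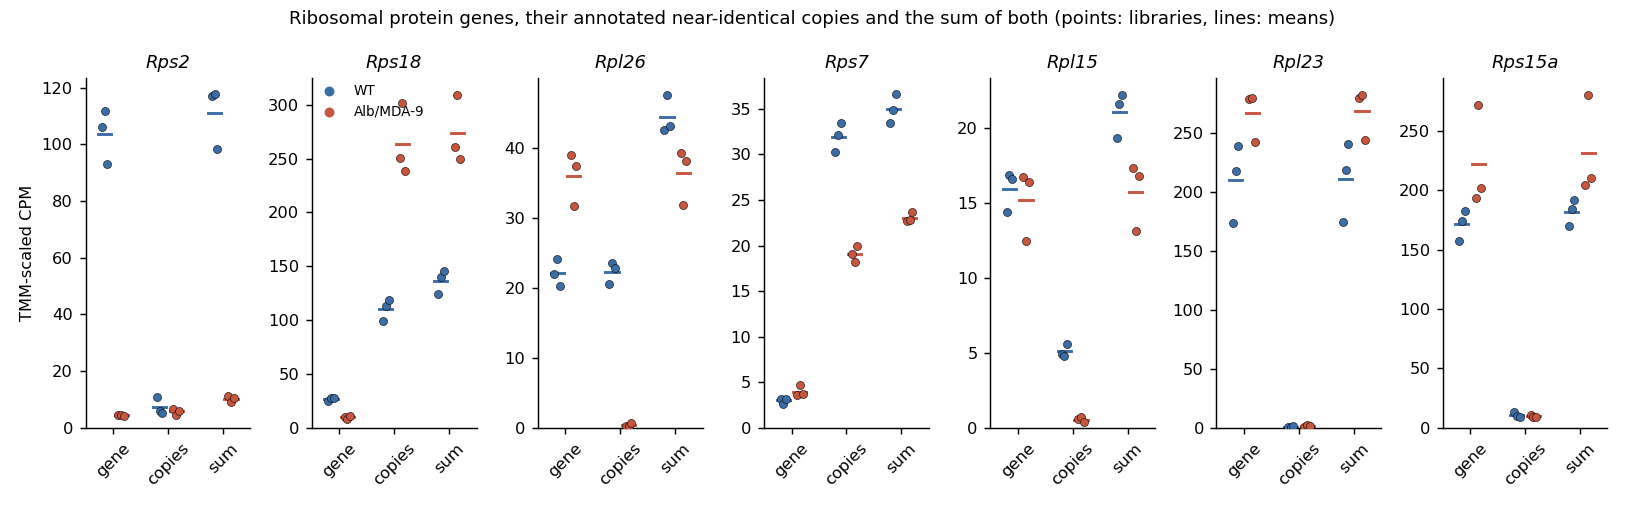
TMM-scaled CPM of 7 ribosomal protein genes, of all their annotated near-identical copies together, and of the sum of both, in each WT library (blue) and Alb/MDA-9 library (red), with the group means as lines and a separate scale from 0 in each panel. Gene and copies move in opposite directions for Rps18, Rpl26 and Rps7, while the low level of Rps2 in Alb/MDA-9 has no counterpart in its copies.

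Over all members, 1088 annotated copies were found for 79 of the 83 genes, with a median of 9 per gene and up to 87 for Rpl7a. Of these copies, 1062 are processed pseudogenes, 17 are listed as protein coding and 341 had no read in any library. Of the 60 copies tested, 5 (8.33%, against 14.4% of all genes in that fit) were called, Gm10260 as higher and Gm15772, Gm8420, Gm14094 and Gm6472 as lower, and each of them was also called without WT 1. Leaving out WT 1 also called Rpl31-ps8 (log2 change 0.78, edgeR adjusted p = 0.0449), Gm2000 (0.74, adjusted p = 0.0400) and Gm15501 (0.76, adjusted p = 0.0422) as higher. Copies held 9.96% of the summed CPM of members and copies. Over the 6 libraries together the copies of 15 members had more CPM than the gene. For 8 of these that held in each library, among them Rpsa, which encodes the laminin-binding uS2 (8.21 against 143 CPM in WT, gene against copies), and Rpl21 (4.01 against 192 CPM). Of the CPM in Rpl21 copies in WT, 188 came from BC004004, a protein coding gene from 29268788 to 29314065 on chromosome 17. How many of its reads lie in the part that matches Rpl21 was not tested. With copies summed, 6 of 80 members were called (7.5%), against 14.6% of the 13237 genes tested in that fit. Leaving out WT 1 as well, 4 of 80 were called, Rps18 and Rpl31 as higher and Rps2 and Rps7 as lower, against 8.64% of 13440 genes.

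The levels of these genes differed widely although a ribosome holds a single molecule of most of these proteins. Among the 79 tested members the mean over the 6 libraries ran from 1.12 CPM per kb of mRNA (Rps16) to 1872 CPM per kb (Rplp1), with a median of 32.8. Rpl24, which was not tested, had 0.588 CPM per kb. The 5 most read members held 48.8% of the summed CPM. Levels were lower where more of the mRNA is shared with other genes. The share of 50-base windows found in another gene had a median of 51.7% and reached 98.6% in Rps27. The 14 tested members with under 30% shared windows had a median of 149.5 CPM per kb, the 34 with 30% to 60% had 55.1, and the 31 with over 60% had 19.3. None of those 31 exceeded 100 CPM in the mean over the 6 libraries, though Rps2, which is among them, had 104 CPM in WT. Of the 5 called members, 3 were among the 31. Across the 79 genes, which share libraries and depth, Spearman's rho between the shared share and the level per kb was -0.47, and between the shared share and the log2 change -0.13. The mRNA length showed no such relation with the level per kb (rho -0.03).

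**Figure D4:**
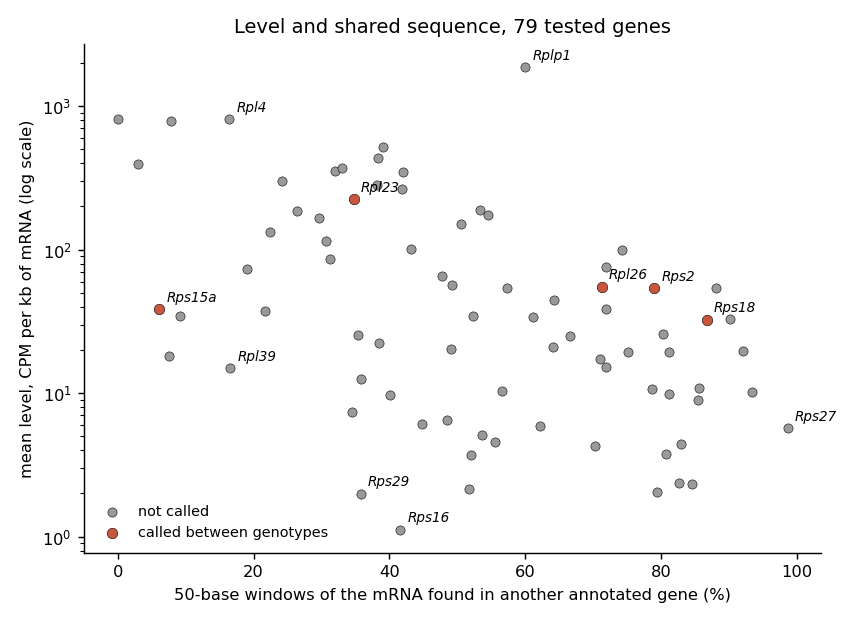
Mean level of each of the 79 tested genes over the 6 libraries, in CPM per kb of mRNA on a log scale, against the percent of its 50-base windows that occur in another annotated gene, with the 5 genes called between genotypes in red. Levels range from 1.12 to 1872 CPM per kb, and genes on the right are mostly lower than genes on the left.

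Levels were also taken per kb of windows unique to the gene, for the 68 tested members with at least 100 such windows. Rplp1 was the highest, with 5188 ± 396 CPM per unique kb (SD over the 6 libraries). Rpl4 (1005 ± 79.3), Rps15 (941 ± 61.6) and Rpl8 (910 ± 49.9) followed, and from Rpl4 on the ranges of mean ± SD of neighbours overlap. The lowest were Rps16 (2.005 ± 0.382), Rps29 (3.55 ± 1.37), Rps23 (4.70 ± 1.55), Rpl38 (8.98 ± 2.17) and Rpl19 (10.6 ± 3.36). This measure leaves out shared windows, and copies in genome sequence that is not annotated were not searched.

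By role, the stalk genes were read deeply and did not pass the test. Rplp0, Rplp1 and Rplp2 encode the stalk of the large subunit, which recruits the elongation factors. Rplp0 had 371, 360 and 357 CPM in WT and 355, 356 and 373 CPM in Alb/MDA-9, a log2 change of -0.01 with an SE of 0.07, and Rplp1 and Rplp2 had changes of 0.13 (SE 0.08) and 0.22 (SE 0.09). Rpl5 and Rpl11 form a particle with the 5S ribosomal RNA that can bind MDM2 and so stabilise p53. Rpl5 had 12.02, 11.6 and 12.4 CPM in WT and 15.4, 14.3 and 14.5 CPM in Alb/MDA-9, groups that do not overlap, and did not pass (log2 change 0.30, SE 0.11, edgeR adjusted p = 0.109). Rpl11 had a change of 0.37 (SE 0.22) and overlapping groups. The copies of Rpl11 held more CPM than the gene in each library, and with them summed its change was -0.01.

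Around the exit of the peptide tunnel, where nascent chains meet chaperones and the signal recognition particle, 1 of 7 genes was called, Rpl26. The share called over all genes, 14.4%, stands beside each of these role groups. Rpl17, Rpl19, Rpl23a, Rpl31, Rpl35 and Rpl39 ranged from -0.22 to 0.51 and were each under 10 CPM on average, against 29.1 for Rpl26. Summed with its copies, Rpl31 had a change of 0.03, and of 0.61 when WT 1 was left out. At the mRNA entry, Rps2 was called and the other 2 were not. Rps3 had 716 ± 32.5 and 792 ± 38.1 CPM (log2 change 0.15, SE 0.07), and Rps9 had 277 ± 11.01 and 276 ± 33.8 CPM (log2 change -0.00, SE 0.09). Rps3 has shared windows over only 2.96% of its mRNA, so its counts are little touched by copies. Of 9 genes mutated in Diamond-Blackfan anaemia, a failure of red cell production, 0 were called, and the highest of their changes was that of Rps7 (0.40).

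Several members have a paralogue that can stand in for them, often in testis or muscle. Rpl3l, the muscle form of Rpl3, had 1 read over the 6 libraries, and Rpl10l and Rpl39l, known from testis, had 14 and 4. A count of 0 allows up to 0.158 to 0.183 CPM depending on the library, the level of 3 reads, a limit for counting error only. Rpl7l1 had 84.8 ± 4.70 and 94.4 ± 3.24 CPM (log2 change 0.16, SE 0.07), beside Rpl7 at 215 ± 4.42 and 223 ± 13.6 (0.05, SE 0.07). Rpl22l1, which Rpl22 represses, had 30.8 ± 2.37 and 28.5 ± 4.25 CPM (-0.11, SE 0.11), beside Rpl22 at 140 ± 8.97 and 146 ± 11.5 (0.06, SE 0.08). Rps27l, a p53 target, was read more than Rps27, with 133.7 against 5.67 CPM per kb, but 98.6% of the Rps27 windows are shared and 22.4% of the Rps27l windows. Rps27 had 2.68, 2.05 and 2.54 CPM in WT and 1.27, 1.46 and 1.75 CPM in Alb/MDA-9, groups that do not overlap, and did not pass (log2 change -0.70, SE 0.29, adjusted p = 0.130). None of these paralogues was called, nor was the pseudogene Rps4l (18.3 ± 1.17 and 14.5 ± 2.38 CPM, adjusted p = 0.115).

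Few genes that work with ribosomal proteins were called. Of the ribosomal proteins outside the naming pattern, 0 of 4 were called, and Rack1, a signalling scaffold on the small subunit, had 1037 ± 55.1 and 1074 ± 21.3 CPM. Among 16 other genes with 5′ TOP mRNAs, 2 were higher and 0 lower, the elongation factor gene Eef1a1 (1457 ± 11 and 1781 ± 195 CPM, log2 change 0.29, SE 0.09) and Btf3, a subunit of the nascent chain complex (0.28, SE 0.08). Of 48 ribosome biogenesis genes 3 were lower and 0 higher, the nucleolar GTPase gene Gnl3 (131 ± 6.87 and 106 ± 5.92 CPM, -0.31, SE 0.07), Wdr12 (-0.29, SE 0.08), which acts in 60S maturation, and Nip7 (-0.25, SE 0.08). Their medians were 0.04 for the 5′ TOP list and -0.01 for biogenesis.

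In the mTORC1 list, Eif4a1, the helicase of the cap-binding complex, was higher (0.26, SE 0.08) and Sesn1, which restrains mTORC1, lower (-0.45, SE 0.14), out of 24 genes with a median of 0.04. Of 77 mitochondrial ribosomal protein genes, which encode a separate ribosome and follow another naming series, Mrpl33 was higher (0.26, SE 0.08) and Mrpl10 lower (-0.43, SE 0.09), with a median of 0.04. All counts in these lists stand beside the 14.4% called over all genes, and most of them depended on scaling or on single libraries, with the values given at the end.

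**Figure D5:**
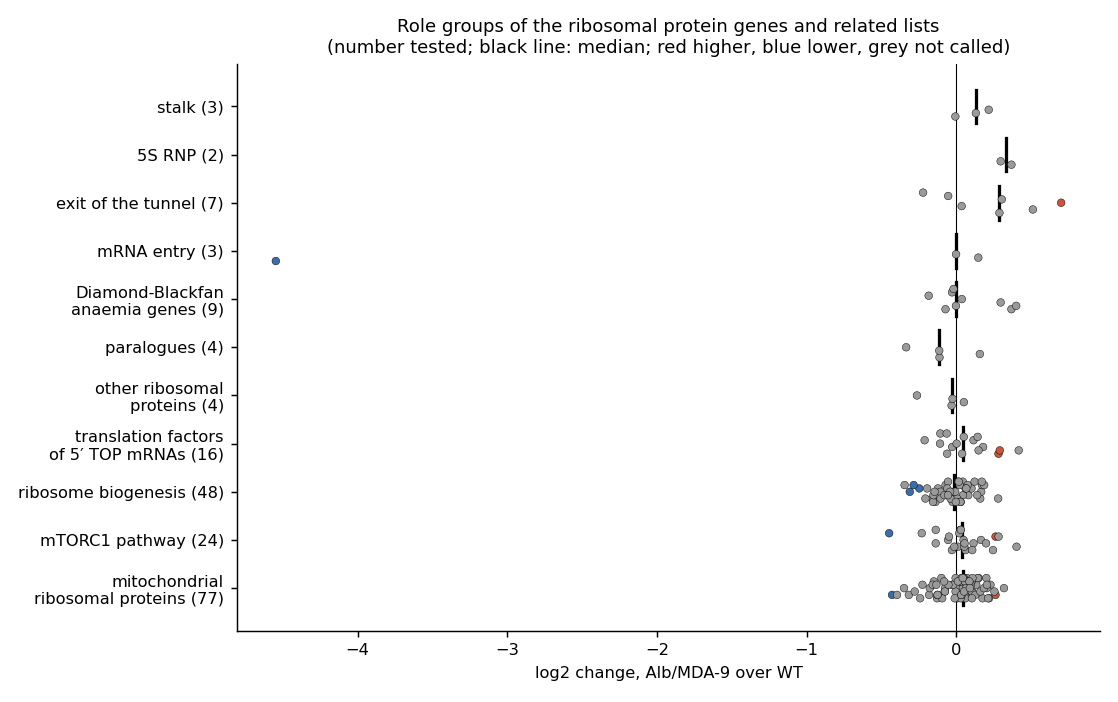
Log2 change (Alb/MDA-9 over WT) of each tested gene in the role groups of the ribosomal proteins and in 5 related lists, with the median of each as a black line and called genes in red (higher) or blue (lower). Apart from Rps2 at -4.55 in the mRNA entry group, the points lie between about -0.45 and 0.70.

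Some members have a pyrimidine run at the start that the naming rule did not use. In the RefSeq promoter table on GRCm38.p6, 63 of the 83 have an annotated start. At 13 of these 63 (20.6%) the first base is C and the next 4 are C or T, read on the strand of the gene, against 3.01% of all 27025 genes with a start in the table. Rps18 and Rps15a are among the 13, and Rps2, Rpl26, Rpl23 and Rpl4 are not. In a window of 15 bases around the start, from 5 before it, the same 5 letters were found in 29 of 63 members (46.0%) and in 21.2% of all genes. The match thus depends on the exact annotated start, and it is a description of letters only. Small RNA genes, mostly snoRNAs, or other genes overlap the span of 34 members on the same strand, and 22 members overlap a gene on the opposite strand. These spans include introns, and overlap of exons was not examined. How many reads were left uncounted for this reason was not tested.

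Within groups the members' levels were close, with a median coefficient of variation of 8.11% in WT and 11.9% in Alb/MDA-9, and of 5.72% and 7.94% for the 41 members of at least 20 CPM. Alb/MDA-9 1 held the highest value of its group for 39 of the 79 tested members and WT 3 the lowest of its group for 39.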

How the data were processed

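RNA was sequenced in 3 WT and 3 Alb/MDA-9 hepatocyte libraries (TruSeq, HiSeq3000, per the labels' protocols). The submitters' processing notes name the builds mm10 and GRCm38, and the tools STAR 2.7.9a, Trim Galore 0.6.6, FastQC 0.11.2 and edgeR 3.18.1. The annotation release is not given in the sources used here. The deposited tables hold the authors' raw read counts per gene from STAR, which counts only reads with a single place and gene. The reverse-strand column was used, which held about 97.0% of stranded gene reads (96.9% to 97.2%). The 4 summary entries of each table stayed out of library sizes.

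From these counts, genes passing filterByExpr (minimum count 10) were scaled by TMM. Genotypes were compared in R 4.3.3 with edgeR 4.0.16 (glmQLFit and glmQLFTest, no covariates), and p-values were adjusted by Benjamini-Hochberg over 13296 genes. The SE of a log2 change was computed as its absolute value divided by the square root of the F statistic. The code was tested on simulated data. GENCODE M21 held 55227 of the 55487 gene identifiers.

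Copies were to be searched in the genome, for the longest coding transcript. No genome sequence was used here, so blastn 2.17.0 searched the M21 transcripts at 90% identity over 50% of the query. The whole count of an annotated gene was taken for the copy, also where the gene reaches beyond the matching sequence. The longest transcript missed copies, so the coding sequence of the principal transcript was chosen after seeing the data. A shared window is a stretch of 50 bases with an exact match in another gene that does not overlap.

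Members and lists were chosen with earlier results of these data known. Named genes are called members, Rps2 and its copies, paralogues, the 5 highest and 5 lowest per unique kb, role groups, members whose call changes with copies summed, and up to 3 called genes per related list; some of these genes are not reported here. Rpl13a, Rpl30, Rps27, Rpsa, Rpl21, Rpl31 and Vps52 were named, and the neighbours within 500 kb counted, after their values were seen. DESeq2 1.42.0, other scalings, filters and strands, copies summed, a replicate block and leaving out each library were tried as alternatives. Copies summed without WT 1 was added after seeing the data.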

Additional observations from a re-analysis of the deposited data

How the results depend on the processing

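Rps2 and Rps18 were lower and Rpl26 higher by their own counts under all scalings, filters, strands and left-out libraries. Higher members numbered 1 with library totals, upper-quartile factors, the stricter filter (5 CPM in 3 libraries, 64 members tested) or unstranded counts, 5 without a filter, and 1 to 5 on leaving out a library, with 2 lower throughout. DESeq2 called 4 of 79 members higher and 2 lower, beside 14.6% of all genes called in either direction. All genes called numbered 1018 to 2386 on leaving out a library (1168 without WT 1, 1018 without WT 2, 1131 without Alb/MDA-9 2). The members' median was -0.0332, 0.0328 and 0.0205 with library totals, upper-quartile factors and the stricter filter, 0.0136 with copies summed by coding sequence, and 0.04 to 0.09 without single libraries. The causes were not tested.

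Summing copies reversed Rps18 (1.0 by either query), Rpl26 (-0.29) and Rps7 (-0.60). Copies numbered 529 by the longest transcript, 126 at 95% identity over 80% and 1088 by coding sequence. Median shared shares were 45.9% with 75-base and 36.5% with 100-base windows, and 40.2% for longest transcripts.

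Shares of all genes called are not given here for library totals, upper-quartile factors, other filters, unstranded counts or the replicate block. The median log2 change of all genes was -0.11 with library totals and -0.04 with upper-quartile factors, so counts of lower genes are not comparable between fits. With library totals, biogenesis had 7 lower, 5′ TOP 0 higher and 1 lower, mTORC1 0 and 2, and mitochondrial ribosomal proteins 0 and 5. With upper-quartile factors these were 5 lower for biogenesis, 0 and 1, 0 and 2, and 0 higher. The stricter filter gave 5 lower for biogenesis, 1 and 1 for 5′ TOP, and 0 higher for mTORC1 and the mitochondrial list. Biogenesis had 1 higher with DESeq2, no filter or copies summed by coding sequence, the mitochondrial list had 2 lower without a filter, and 5′ TOP 1 higher with unstranded counts. On leaving out a library, biogenesis ranged over 0 to 1 higher and 0 to 6 lower, 5′ TOP 0 to 3 higher, mTORC1 0 to 1 in each direction, and the mitochondrial list 0 to 2 higher and 1 to 4 lower.

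Replicate numbers did not pair the libraries (correlations of deviations -0.04, -0.00 and -0.06). With the number as a replicate block, 2 members were higher and 2 lower and Rpl23 was not called (adjusted p = 0.0589). Biogenesis then had 1 higher and 1 lower, mTORC1 0 and 0, and the mitochondrial list 0 higher. Rpl4 was called without Alb/MDA-9 3 and Rps4x without Alb/MDA-9 1.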
